A study of Mus musculus with 11 samples.

Results

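The transcription factor core of haematopoietic stem and progenitor cells (HSPCs) was read in RNA-seq libraries of mice with wild-type, mutant, or no p53. The core was taken as the rows of the gene count table with the symbols Runx1, Gata2, Tal1, Lmo2, Lyl1, Fli1, Erg, Gfi1, Gfi1b, and Mecom, which gave 10 of the 12647 genes in the table. All 10 passed the filter on low counts, with between 220 and 26472 counts per gene and library, as did 12625 genes in all. The cells were LSKs, a fraction of bone marrow sorted as Lin-Sca1+Kit+ that holds stem cells and multipotent progenitors, with 3 libraries for each genotype. The p53+/+ mice carried the humanized HUPKI allele of p53, which encodes a chimera of human and mouse p53. In p53R248W/+ mice, 1 copy held the R248W missense mutation within that humanized allele, under the endogenous mouse promoter. The p53-/- mice lacked p53. All were young, tumor-free mice. The paper states a backcross to C57BL/6 for p53+/+ and p53R248W/+ mice and gives no background for p53-/- mice. The labels do not say whether the 3 libraries of a genotype came from separate mice. Y-linked transcripts were present in some and nearly absent from other libraries of p53+/+ and of p53R248W/+, so those of 1 genotype did not all come from the same animals, whereas the spread between p53-/- libraries may be technical. The H3K27me3 samples of the series (p53+/+ and p53R248W/+ Lin-Kit+ cells) were not analysed here.

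Transcription factors of this core bind DNA together, often at the same enhancers, including enhancers of each other's genes, and the circuit sustains stem cell identity in blood. GATA2 binds GATA motifs, RUNX1 binds with its partner CBFB, and FLI1 and ERG are ETS factors. TAL1 and LYL1 are basic helix-loop-helix proteins that pair with E proteins on E-boxes and are joined to GATA factors by the bridging protein LMO2 and by LDB1, which do not bind DNA themselves. GFI1 and GFI1B are zinc-finger repressors that recruit a histone demethylase complex, and MECOM encodes EVI1, a zinc-finger factor needed for long-term stem cells. Wild-type p53 is itself a transcription factor that restrains HSPC proliferation and drives genes such as Cdkn1a.

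Promoter sequence was read from RefSeq for the 8 of 10 genes with an entry, as the 250 bases before each annotated start on GRCm38.p6, which gave 15 windows. Lmo2 and Fli1 have no window. The GATA letters AGATAA or TGATAA, on either strand, occurred in 4 of these windows, against 16.6% of all 32851 windows of that length. Those 4 are shown for their GATA letters, which the core member GATA2 recognises. Windows that are not shown also hold letters of core members, and these are given below. Capitals mark GATA letters, the E-box letters CAGATG or CAGCTG, the ETS letters AGGAAG or CGGAAG, and the GFI1 letters AAATCA, each on either strand. These motifs do not overlap one another in the windows shown. The windows lie at chr2:28621983-28622232 on the minus strand for Gfi1b, chr4:115056176-115056425 on the plus strand for Tal1, chr3:30509760-30510009 on the minus strand for Mecom, and chr16:95459349-95459598 on the minus strand for the third start of Erg.
Gfi1b: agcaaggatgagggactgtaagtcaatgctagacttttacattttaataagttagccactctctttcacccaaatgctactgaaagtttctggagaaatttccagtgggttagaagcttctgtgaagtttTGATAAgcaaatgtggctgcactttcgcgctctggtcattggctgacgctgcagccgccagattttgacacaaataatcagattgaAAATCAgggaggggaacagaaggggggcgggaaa
Tal1: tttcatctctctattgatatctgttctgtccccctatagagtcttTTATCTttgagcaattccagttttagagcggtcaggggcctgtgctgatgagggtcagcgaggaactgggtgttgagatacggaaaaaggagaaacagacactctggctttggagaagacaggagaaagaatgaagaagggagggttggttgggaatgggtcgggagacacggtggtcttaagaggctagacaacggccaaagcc
Mecom: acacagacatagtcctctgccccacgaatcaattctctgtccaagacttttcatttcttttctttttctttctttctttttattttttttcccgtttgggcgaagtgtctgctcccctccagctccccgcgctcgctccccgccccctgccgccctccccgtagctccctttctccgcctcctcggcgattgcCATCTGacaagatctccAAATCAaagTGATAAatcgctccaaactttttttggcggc
Erg: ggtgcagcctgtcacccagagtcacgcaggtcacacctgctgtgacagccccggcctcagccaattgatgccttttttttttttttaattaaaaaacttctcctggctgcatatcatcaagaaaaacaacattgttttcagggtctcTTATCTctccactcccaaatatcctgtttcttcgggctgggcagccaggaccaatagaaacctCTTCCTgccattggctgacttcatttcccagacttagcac
Counted back from the base before the start, the GATA letters began at -120 in Gfi1b, -205 in Tal1, -31 in Mecom, and -103 in Erg. The GFI1 letters stood at -34 in Gfi1b and -40 in Mecom, 2 of the 15 windows against 12.4% of all windows. An E-box was found at -57 in Mecom alone, 1 of 15 against 25.5%. ETS letters were found in 5 windows, those of Runx1, Lyl1, Gfi1, Erg, and the downstream start of Mecom, against 39.2% of all windows. The RUNX letters TGTGGT or TGCGGT occurred in 0 of 15 windows against 18.6%, and the p53 half-site by its consensus in 0 of 15 against 7.13%. These are matches of letters within 250 bases, and binding was not measured.

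Levels between genes were compared as CPM, counts scaled to a common library total with TMM factors, divided by the deposited gene length in kb. Lmo2 stood far above the rest on this scale, at 507 ± 35.1 CPM per kb (mean ± SD, n = 3) in p53+/+ LSKs, 506 ± 32.4 in p53R248W/+ LSKs, and 544 ± 55.2 in p53-/- LSKs. Fli1 came next at 45.2 CPM per kb in p53+/+ cells, and then Gata2 at 44.9, with overlapping libraries. Gfi1b at 24.4 and Lyl1 at 22.9 CPM per kb also overlapped, as did Runx1 at 15.1 and Gfi1 at 15.0, while each of these pairs was separated from the next. Erg at 8.33, Tal1 at 6.63, and Mecom at 5.93 CPM per kb closed the order, and the libraries of Tal1 and Mecom overlapped. The range from Lmo2 to Mecom was 85.4-fold in p53+/+ cells. In p53R248W/+ cells the order was the same except that Gfi1 and Runx1 changed places, and their libraries overlapped. In p53-/- cells the first 5 places were held by the same genes in the same order, Fli1 was separated from Gata2 (71.4 and 52.3 CPM per kb), and Gata2 overlapped with Gfi1b (50.6 CPM per kb). Erg was last in p53-/- cells at 6.07 CPM per kb, and its libraries overlapped with those of Mecom.

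**Figure D1:**
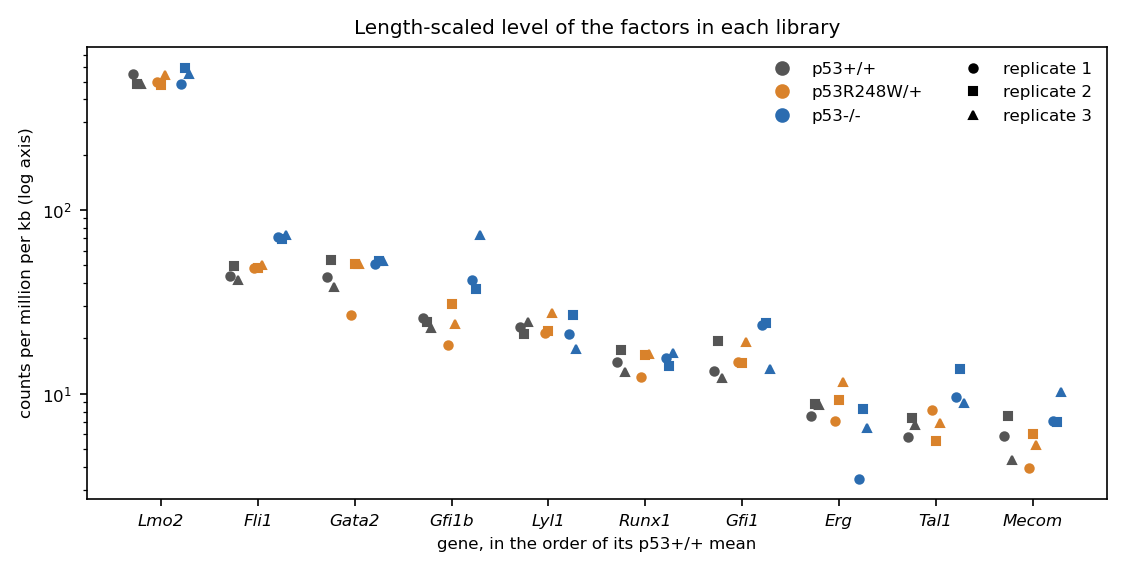
CPM per kb of gene length (log axis) for each factor in each of the 9 libraries, colored by genotype, with the replicate number as the symbol. Lmo2 is at 11.2 times the mean level of Fli1 in p53+/+ cells, and the Fli1 points of p53-/- cells lie above those of both other genotypes.

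The genotypes were compared with edgeR's quasi-likelihood test in 1 fit to all 9 libraries, with p-values adjusted over the 12625 genes by the Benjamini-Hochberg method and called below 0.05. The comparison of p53-/- with p53+/+ LSKs was taken first. These groups also differed in the humanized allele and in Y-linked transcripts, which all p53-/- libraries nearly lacked, unlike p53+/+ replicate 2. The deposited names of p53-/- libraries also have a form of their own, and whether they were prepared apart from the others is not stated. The test compares the groups as they are and does not set the loss of p53 apart from these differences. In p53-/- against p53+/+ LSKs, 1 of the 10 factors was called, Fli1, which rose 1.58-fold, where 3.5% of all genes were called. By unadjusted p below 0.05, 3 factors passed (Fli1, Gfi1b, and Tal1) against 23.4% of all genes. The same 3 factors were higher in every p53-/- library than in every p53+/+ library, and 15.4% of all genes were separated in that direction. The median log2 fold change of the factors was 0.33, beside -0.00125 for all genes, with 8 factors above 0 and 2 below. Of all genes, 49.9% were above 0. The median absolute log2 fold change of all genes, taken without the sign, was 0.3295, so changes of this size were common.

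**Figure D2:**
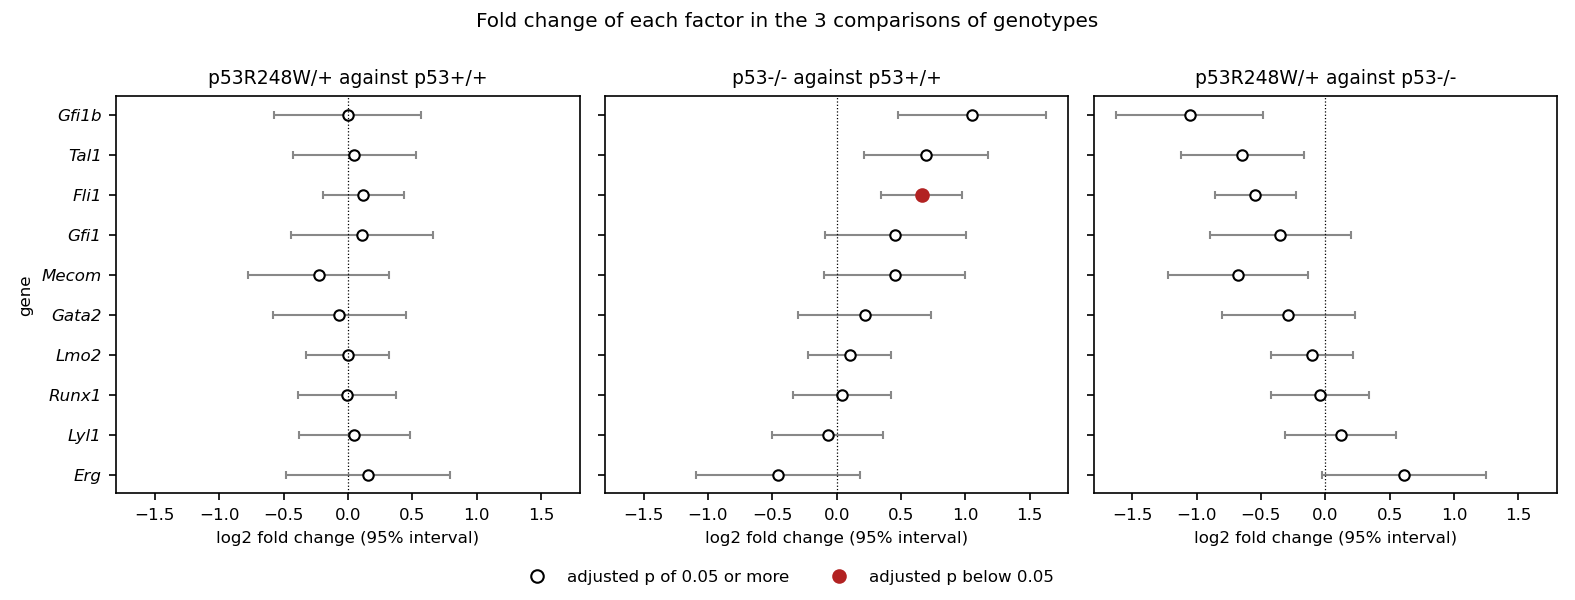
Log2 fold change of each factor with its 95% interval in the 3 comparisons of genotypes, from the edgeR fit to 9 libraries. Fli1 in p53-/- against p53+/+ cells (0.66) is the filled point. All intervals of p53R248W/+ against p53+/+ cells cross 0.

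Of the ETS factors, Fli1 rose in this comparison and Erg did not pass the test. FLI1 is needed for definitive blood formation and drives megakaryocyte genes. Fli1 (chr9:32422204-32543432, minus strand) was at 139.7, 157.5, and 132.8 CPM in p53+/+ replicates 1 to 3, at 152.6, 154.2, and 160.2 CPM in p53R248W/+ replicates, and at 227.3, 220.7, and 232.4 CPM in p53-/- replicates. Its p53-/- libraries lay close together and above all 6 others. The log2 fold change of Fli1 was 0.66 ± 0.14 (SE) in p53-/- against p53+/+ cells (edgeR adjusted p = 0.0343). In bulk RNA, a change in the share of a cell type and a change in RNA per cell cannot be told apart. The call rested on the full set of libraries, since it was lost without any 1 of 8 libraries (edgeR adjusted p = 0.0516 to 0.147), and it held without p53R248W/+ replicate 1 (adjusted p = 0.0126). The log2 fold change itself stayed between 0.61 and 0.73 in these fits. ERG, the related ETS factor, maintains adult stem cells. Erg (chr16:95359169-95586600, minus strand) was at 26.1, 30.5, and 30.0 CPM in p53+/+, at 24.5, 31.9, and 40.3 CPM in p53R248W/+, and at 12.0, 28.6, and 22.6 CPM in p53-/- replicates. Replicate 1 of p53-/- was the lowest of all 9 libraries for Erg, and the genotypes overlapped. Its log2 fold change was -0.46 ± 0.29 in p53-/- against p53+/+ cells, and the 95% interval reached from -1.09 to 0.18 (edgeR adjusted p = 0.372). The value was -0.16 without p53-/- replicate 1 and -0.74 without p53-/- replicate 2.

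The repressor genes of the GFI1 family did not pass the test. GFI1B controls erythroid and megakaryocyte development and limits stem cell cycling. Gfi1b (chr2:28609450-28621982, minus strand) was at 47.0, 44.9, and 41.5 CPM in p53+/+, at 33.4, 55.9, and 43.9 CPM in p53R248W/+, and at 75.5, 68.0, and 133 CPM in p53-/- replicates. All 3 p53-/- libraries were above all others, and replicate 3 stood above the other two. The fold was 2.07 (95% interval 1.40 to 3.08) in p53-/- against p53+/+ cells, and Gfi1b missed the threshold (edgeR adjusted p = 0.0506). It passed in 7 of 20 alternative fits, among them DESeq2 (adjusted p = 0.00332), and adjusted p ranged up to 0.198. DESeq2 also called more of all genes than edgeR in this comparison. Without p53-/- replicate 3, the log2 fold change of Gfi1b was 0.69 in place of 1.05 (edgeR adjusted p = 0.131), below that of Tal1 in the same fit (0.81). GFI1 restrains stem cell proliferation and directs granulocyte fate. Gfi1 (chr5:107716655-107725805, minus strand) was at 41.5, 60.3, and 38.0 CPM in p53+/+, at 46.0, 45.6, and 59.2 CPM in p53R248W/+, and at 74.0, 75.4, and 42.6 CPM in p53-/- replicates. Replicates 1 and 2 of p53-/- were above all p53+/+ libraries and replicate 3 was among them. In p53-/- replicate 3, then, Gfi1b was at its highest and Gfi1 at the lowest value of the genotype. The log2 fold change of Gfi1 was 0.46 ± 0.25 (edgeR adjusted p = 0.300), and its exons share 101 bases with A430072P03Rik on the opposite strand, which counts without strand cannot separate.

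The TAL1 complex was uneven. Tal1 (chr4:115056426-115071755, plus strand), which encodes the helix-loop-helix factor that specifies blood, was at 24.7, 31.4, and 28.9 CPM in p53+/+, at 35.0, 23.6, and 29.4 CPM in p53R248W/+, and at 41.1, 58.4, and 38.2 CPM in p53-/- replicates. The p53-/- libraries were above all 6 others, with replicate 2 the highest. The log2 fold change of Tal1 was 0.69 ± 0.22 in p53-/- against p53+/+ cells, which missed the threshold (edgeR adjusted p = 0.0909). Without p53R248W/+ replicate 1, Tal1 was called (edgeR adjusted p = 0.0413), and over 20 alternatives its adjusted p ranged from 0.0343 to 0.258. LYL1 is the paralog that can stand in for TAL1 in adult stem cells. Lyl1 (chr8:84701423-84704716, plus strand) was at 41.7, 38.0, and 44.0 CPM in p53+/+, at 38.5, 39.7, and 49.7 CPM in p53R248W/+, and at 37.9, 48.3, and 31.5 CPM in p53-/- replicates. All 3 genotypes overlapped for Lyl1, with a log2 fold change of -0.07 (95% interval -0.50 to 0.36) in p53-/- against p53+/+ cells. Lmo2 (chr2:103957903-103981878, plus strand), the bridging member, was at 1040, 924, and 925.5 CPM in p53+/+, at 951, 907, and 1029 CPM in p53R248W/+, and at 924.5, 1134, and 1041 CPM in p53-/- replicates. The libraries of the 3 genotypes overlapped for Lmo2, and the log2 fold change was 0.10 (95% interval -0.22 to 0.42).

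GATA2 keeps stem cells in an undifferentiated state. Gata2 (chr6:88193891-88207032, plus strand) was at 140.5, 174, and 123 CPM in p53+/+, at 86.8, 166, and 165 CPM in p53R248W/+, and at 165.5, 172, and 171 CPM in p53-/- replicates. The p53R248W/+ replicate 1 was the lowest library for Gata2 and all p53-/- values lay within the p53+/+ range. The spread within a genotype ran from a coefficient of variation of 2.05% in p53-/- to 32.5% in p53R248W/+ libraries for this gene, where counting error alone gives 1.70% to 1.88%. Runx1 (chr16:92601466-92826074, minus strand), which encodes the core binding factor that creates the first stem cells in the embryo, was at 109, 127, and 97.2 CPM in p53+/+, at 91.0, 119, and 122 CPM in p53R248W/+, and at 116, 105, and 122 CPM in p53-/- replicates. Its p53-/- values lay inside the p53+/+ range. Log2 fold changes in p53-/- against p53+/+ cells were 0.22 (95% interval -0.30 to 0.73) for Gata2 and 0.04 (95% interval -0.34 to 0.42) for Runx1. Runx1 is read from starts 128745 bases apart, and the counts sum over them. Mecom (chr3:29951296-30509759, minus strand) was at 32.4, 41.7, and 23.9 CPM in p53+/+, at 21.8, 33.0, and 29.0 CPM in p53R248W/+, and at 39.1, 38.5, and 56.4 CPM in p53-/- replicates. The p53-/- values of Mecom were above all p53R248W/+ values and overlapped with p53+/+ replicate 2. Its log2 fold change was 0.45 ± 0.25 in p53-/- against p53+/+ cells (edgeR adjusted p = 0.303), and 0.27 without p53+/+ replicate 3 and 0.25 without p53-/- replicate 3. The Mecom count likewise sums transcripts from starts 496555 bases apart, so the EVI1 form was not read on its own.

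**Figure D3:**
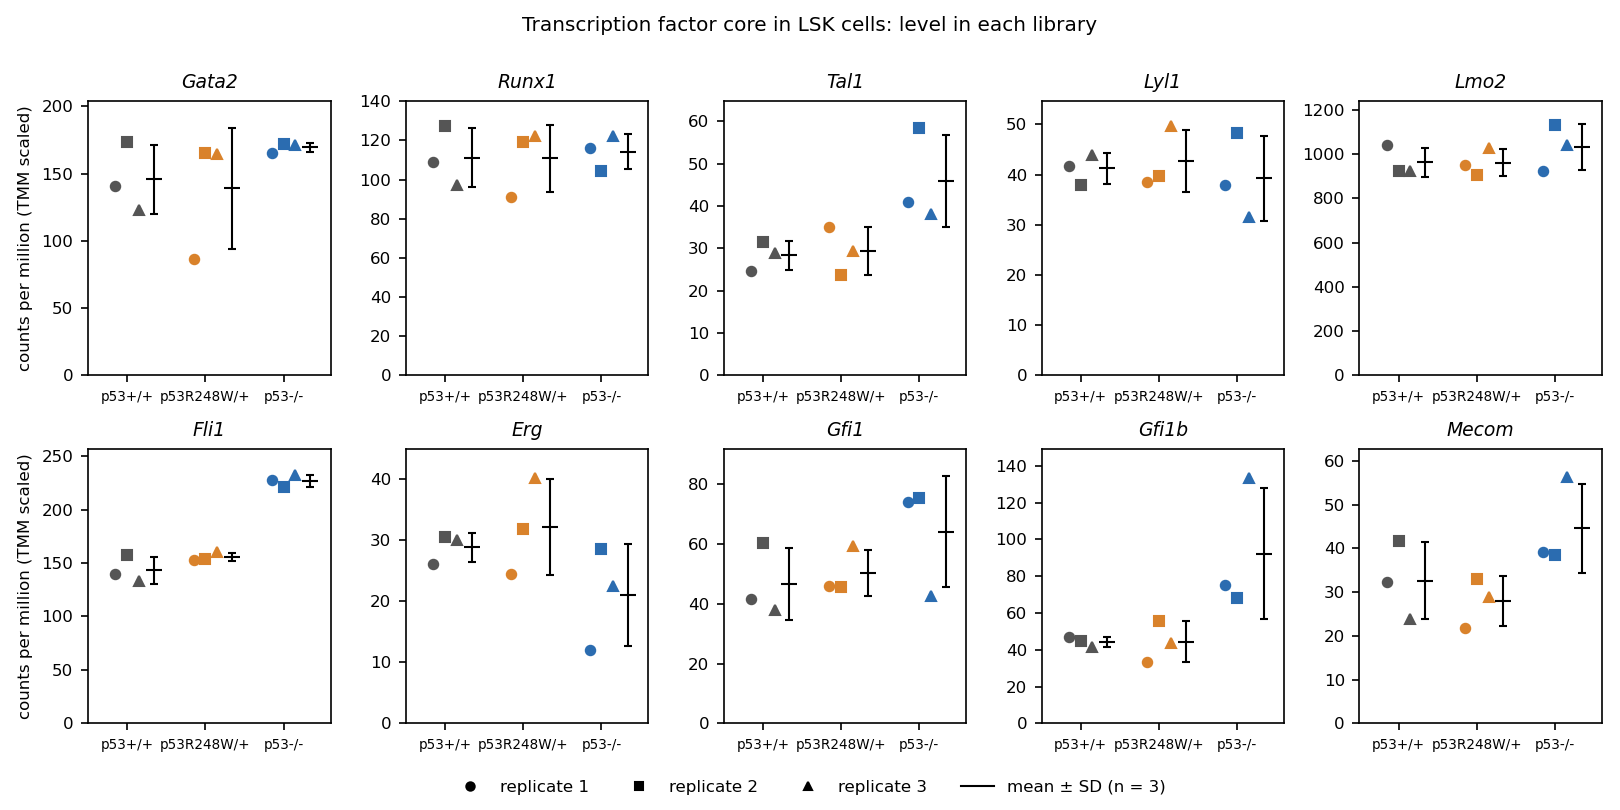
CPM (TMM scaled) of each of the 10 factors in each library, with the mean and SD of the 3 libraries of a genotype as a bar at its right. Fli1, Tal1, and Gfi1b are the factors whose p53-/- points all lie above the points of both other genotypes.

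The question of the R248W mutation was addressed by the comparison of p53R248W/+ with p53+/+ LSKs. None of the 10 factors was called (edgeR, 0 of 10, with 0 at an unadjusted p below 0.05, and 0 by DESeq2 and by limma-voom), where 0.00792% of all genes were called and 0.958% passed an unadjusted p below 0.05. The factors' log2 fold changes ran from -0.23 for Mecom to 0.16 for Erg, with 5 above 0 and 5 below, a median of 0.02 beside 0.01 for all genes, and the smallest unadjusted p was 0.385. Of all genes, 52.5% were above 0. No factor was separated between these genotypes, and 5.04% of all genes were. The intervals bound what could have been missed. For Fli1 and Lmo2 they reached from -0.20 to 0.43 and from -0.32 to 0.32 on the log2 scale, while for Erg the interval was -0.48 to 0.79 and for Mecom -0.77 to 0.32. A change of more than 1.35-fold upward in Fli1 thus lay outside its 95% interval, and one of 1.73-fold upward in Erg did not. The 3 factors separated in p53-/- cells were all near 0 here, at 0.12 for Fli1, 0.05 for Tal1, and -0.00265 for Gfi1b. The comparisons with p53+/+ share their p53+/+ libraries.

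Set directly against p53-/- cells, p53R248W/+ LSKs had lower values for 8 of the 10 factors, with a median log2 fold change of -0.32 beside 0.02 for all genes. Of all genes, 51.7% were above 0, and the median absolute log2 fold change was 0.299. These groups also differed in the humanized allele, in the form of the library names, and in Y-linked transcripts, held by p53R248W/+ replicates 2 and 3. The test does not set genotype apart from these differences. Of the 10 factors, edgeR called 0, where it called 3.44% of all genes. An unadjusted p below 0.05 was reached by 4 factors and by 21.0% of all genes. DESeq2 called 2 factors and limma-voom 0, and DESeq2 also called more of all genes than edgeR. Gfi1b was at 0.481 of its p53-/- level (95% interval 0.324 to 0.715, edgeR adjusted p = 0.0518), and Fli1 was at 0.686 (95% interval 0.552 to 0.853, edgeR adjusted p = 0.0604). Tal1 differed by -0.64 on the log2 scale (edgeR adjusted p = 0.121) and Mecom by -0.68 (edgeR adjusted p = 0.150). The libraries of these 4 factors did not overlap, and 12.0% of all genes were separated in that direction. Without p53R248W/+ replicate 1, the deepest library, Fli1 (edgeR adjusted p = 0.0376), Gfi1b (adjusted p = 0.0444), and Tal1 (adjusted p = 0.0397) were called. Erg had a positive value, a log2 fold change of 0.61 and a 95% interval from -0.02 to 1.25, and was at 0.31 without p53-/- replicate 1. DESeq2 called Gfi1b (adjusted p = 0.00324) and Fli1 (adjusted p = 0.00125).

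The library p53R248W/+ replicate 1 held the lowest value of its genotype for 7 of the 10 factors, the exceptions being Tal1, Lmo2, and Gfi1. It was also the library with the highest total, 29750702 counts, and a TMM factor of 0.935. In p53+/+, replicate 2 held the highest value for 7 of 10 factors, and in p53-/- no library led for more than 6. Within a genotype the coefficient of variation of a factor had a median of 15.4% and reached 39.9% for Erg in p53-/- libraries. Counting errors, taken at the mean count of a genotype, were at most 4.78%.

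Partners and paralogs of the core were read from lists. Ldb1, which encodes the scaffold of LMO2 complexes, was at 149.8 ± 1.27 CPM in p53+/+, 145 ± 26.7 in p53R248W/+, and 152 ± 24.1 in p53-/- cells (SD, n = 3). Cbfb, the partner of RUNX1, was at 221 ± 4.69, 229 ± 27.02, and 269 ± 68.2 CPM in the same order. The E protein genes Tcf3 and Tcf12 had log2 fold changes of -0.46 ± 0.21 (edgeR adjusted p = 0.206) and -0.46 ± 0.26 (edgeR adjusted p = 0.310) in p53-/- against p53+/+ cells. Tcf3 was at 251, 294, and 292 CPM in p53+/+ and at 209, 162, and 235 CPM in p53-/- replicates. Of the 21 partners and cofactors, edgeR called 0 in each of the 3 comparisons, and DESeq2 and limma-voom called 0. By edgeR, 6 passed an unadjusted p below 0.05 in p53-/- against p53+/+ cells, where 23.4% of all genes did. The shares of all genes called were 3.5% there and 3.44% in p53R248W/+ against p53-/- cells. In p53R248W/+ against p53+/+ cells the share was 0.00792%. Of the 10 paralogs tested, among them Gata1, Gata3, Runx2, and Runx3, edgeR and limma-voom called 0 in every comparison and DESeq2 called 1 in each comparison with p53-/- cells, with 2 at an unadjusted p below 0.05 in each of these by edgeR. Of all genes, 23.4% passed this threshold in p53-/- against p53+/+ cells and 21.0% in p53R248W/+ against p53-/- cells. DESeq2 called more of all genes than edgeR in both. The median log2 fold change in p53-/- against p53+/+ cells was -0.13 for partners and -0.13 for paralogs.

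Among 26 other HSPC transcription factors, 3 rose and 1 fell in p53-/- against p53+/+ LSKs, where 1.25% of all genes were called higher and 2.25% lower. Hlf, a stem cell bZIP factor, was at 205, 192, and 117.5 CPM in p53+/+ and at 351, 362, and 418 CPM in p53-/- replicates, with all p53-/- libraries the higher. Its log2 fold change was 1.13 ± 0.22 (edgeR adjusted p = 0.0242). Mycn, a MYC family gene active in immature cells, rose by a log2 fold change of 0.82 ± 0.17 (edgeR adjusted p = 0.0294). Nfe2, an erythroid and megakaryocyte bZIP factor, rose by 0.78 ± 0.17 (edgeR adjusted p = 0.0354). Irf8, which directs monocyte and dendritic fate, was at 218, 249.9, and 235 CPM in p53+/+ and at 108, 82.8, and 125 CPM in p53-/- replicates, and its log2 fold change was -1.15 ± 0.20 (edgeR adjusted p = 0.0183). In p53R248W/+ against p53-/- cells, 1 of the 26 was higher and 4 lower, where 2.34% and 1.1% of all genes were. Irf8 was higher by 1.51, and Hlf, Mycn, and Meis1 were lower, with log2 fold changes of -1.41, -0.92, and -0.74 (edgeR adjusted p = 0.00885, 0.0195, and 0.0366), as was Nfe2 at -0.73 (edgeR adjusted p = 0.0425). Meis1, a homeobox cofactor of HOX proteins, had missed the threshold in p53-/- against p53+/+ cells (0.63, edgeR adjusted p = 0.0552). Several of these calls did not last when libraries were left out. In p53-/- against p53+/+ cells, Irf8 was lost without p53+/+ replicates 2 or 3 or p53-/- replicates 1 or 2 (edgeR adjusted p up to 0.0820), and Hlf without these or p53-/- replicate 3 (adjusted p up to 0.0837). Mycn was lost without any 1 of the 6 p53-/- and p53+/+ libraries (edgeR adjusted p up to 0.104), and Nfe2 without any but p53R248W/+ replicate 1, in both comparisons (adjusted p up to 0.158 and 0.177). In p53R248W/+ against p53-/- cells, Irf8 and Hlf were called in all 9 such fits. There, Mycn was lost without replicates 2 or 3 of either genotype (edgeR adjusted p up to 0.0692), and Meis1 without these, p53-/- replicate 1, or p53+/+ replicate 2 (adjusted p up to 0.146). In p53R248W/+ against p53+/+ cells 0 of the 26 were called by edgeR, DESeq2, or limma-voom, with 0 at an unadjusted p below 0.05.

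Genes described as targets of the core gave 0 calls of 16 by edgeR in p53-/- against p53+/+ LSKs (6 at an unadjusted p below 0.05, 4 by DESeq2, and 0 by limma-voom). There, edgeR called 3.5% of all genes, and 23.4% passed an unadjusted p below 0.05. DESeq2 called more of all genes than edgeR, so the 3.5% is not the share to set beside its 4 calls. In p53R248W/+ against p53-/- LSKs 1 of the 16 was called higher, Mpo, and 1 lower, where 2.34% and 1.1% of all genes were. Mpo, the granulocyte enzyme myeloperoxidase, was at 3670, 5776, and 3213 CPM in p53R248W/+ and at 1456, 1169, and 1125 CPM in p53-/- replicates, a log2 fold change of 1.76 ± 0.25 (edgeR adjusted p = 0.00778), and it was called in all 9 fits with 1 library left out. In p53R248W/+ against p53+/+ cells 0 of 16 were called by edgeR, DESeq2, or limma-voom, with 1 at an unadjusted p below 0.05. The median of the target list was -0.22 in p53-/- against p53+/+ cells, on the other side of 0 from the median of the core.

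**Figure D4:**
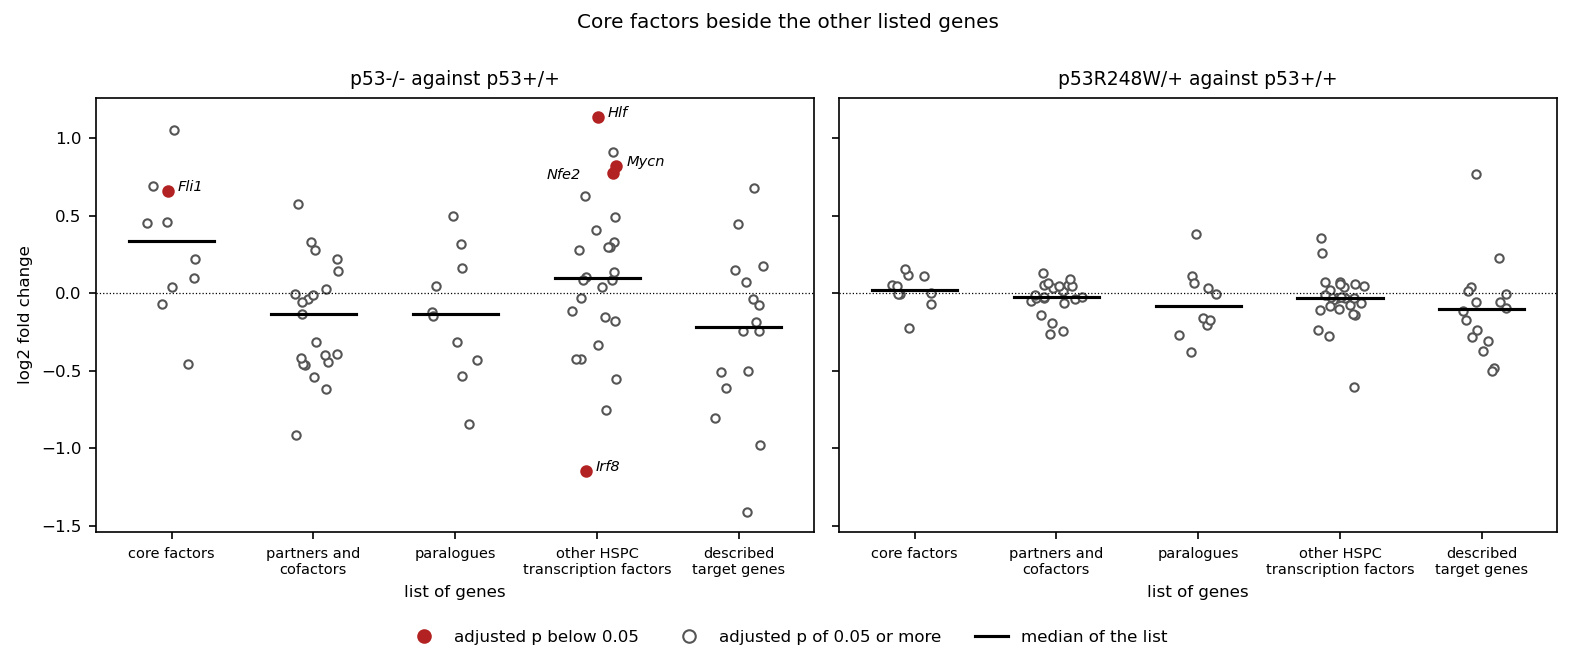
Log2 fold change of each gene of the core and of 4 other lists in p53-/- against p53+/+ and p53R248W/+ against p53+/+ cells. Filled points passed an adjusted p of 0.05 and the bar is the median of the list. The median of the core was 0.33 in p53-/- against p53+/+ cells and 0.02 in p53R248W/+ against p53+/+ cells.

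The libraries differed in other ways, given here beside these results. The LSK markers Kit, Ly6a, and Cd34 were present in all 9 libraries, and the summed level of 7 LSK markers ranged from 3188 to 3934 CPM. In p53-/- against p53+/+ cells, 0 of these 7 were called by edgeR or limma-voom and 1 by DESeq2, with 2 at an unadjusted p below 0.05. Of all genes, edgeR called 3.5%, DESeq2 called more, and 23.4% passed an unadjusted p below 0.05 by edgeR. The values of the 7 markers moved apart. Procr, a marker of stem cells, was at 58.1, 88.3, and 43.5 CPM in p53-/- and at 37.7, 28.4, and 17.96 CPM in p53+/+ replicates (log2 fold change 1.17, edgeR adjusted p = 0.0619). Ly6a, which encodes Sca1, was likewise higher in all p53-/- libraries (0.65, edgeR adjusted p = 0.231). Cd48, carried by progenitors more than by stem cells, was lower in all of them (-0.52, edgeR adjusted p = 0.173). Slamf1 encodes CD150, which the paper uses to sort long-term stem cells, and went the other way from Procr. Its value was -0.81 with overlapping libraries (edgeR adjusted p = 0.252). Kit, Cd34, and Flt3 were at 0.08, 0.17, and -0.24, with overlapping libraries. Cdkn1a, the p53 target, was at 67.0, 44.0, and 43.6 CPM in p53+/+, at 52.1, 37.7, and 35.6 CPM in p53R248W/+, and at 17.8, 8.27, and 11.0 CPM in p53-/- replicates, a log2 fold change of -2.07 in p53-/- against p53+/+ cells (edgeR adjusted p = 0.00914). Trp53 reads remained in p53-/- libraries, at 112 to 129 CPM, against 125 to 376 CPM in p53+/+ libraries. Neutrophil granule genes (S100a8, S100a9, Camp, and Ngp) summed to 2737 CPM in p53+/+ replicate 2 and 1802 CPM in p53R248W/+ replicate 2, and to between 7.32 and 113 CPM in the other 7. Y-linked genes summed to between 69.8 and 184.5 CPM in p53+/+ replicate 2 and p53R248W/+ replicates 2 and 3 and to at most 0.216 CPM in the others, which include all p53-/- libraries. The 9 granulocyte and monocyte markers in the table (of 10) summed to 1829 to 2194 CPM in p53-/-, 2558 to 7404 CPM in p53+/+, and 4081 to 9096 CPM in p53R248W/+ libraries. Over all 9 libraries, 4 of 8 erythroid markers summed to 12.5 to 79.3 CPM, and 8 of 8 mast cell and basophil markers to 33.3 to 249 CPM. The 5 megakaryocyte markers in the table (of 6) summed to 107 to 124 CPM in p53-/-, 120 to 183 CPM in p53+/+, and 131 to 140 CPM in p53R248W/+ libraries. Against p53+/+ cells, 4 of these 5 were negative and 1 positive in p53-/- (median -0.51) and in p53R248W/+ cells (median -0.31). Over all libraries, 6 of 7 B lymphoid markers summed to 76.3 to 133 CPM, most of it Cd79b. In p53-/- against p53+/+ cells, 4 of these 6 were negative and 2 positive. The 4 T and NK lymphoid markers in the table (of 7) summed to 204 to 276 CPM in p53-/- and 314 to 418 CPM in the other libraries. Nkg7 alone made up most of each sum, at 197 to 267 CPM in p53-/- and 308.5 to 407.5 CPM in the others. In p53-/- against p53+/+ cells, the log2 fold change was -0.48 for Nkg7 and 0.96 for Klrb1c. It was -0.36 for Ncr1 and -0.09 for Cd8a, both at low levels. The 6 endothelial markers (of 8) summed to 452 to 488 CPM in p53-/- and 486 to 689 CPM in the others. Egfl7 alone made up most of each sum, at 250 to 331 CPM in p53-/- and 267 to 469 CPM in the others. In p53-/- against p53+/+ cells, 3 of the 6 were positive and 3 negative, among them Tie1 at 0.46 and Pecam1 at -0.96. Immediate early genes summed to 650.5 to 949.6 CPM in p53-/- and 1306 to 5839 CPM in the other libraries, and 15 cell cycle genes to 1699 to 2622 CPM in p53-/- and 2641 to 3352 CPM in the others. Their part in the changes of the core was not tested. Without the libraries with granule transcripts, the log2 fold change of Fli1 in p53-/- against p53+/+ cells was 0.73 (edgeR adjusted p = 0.131), of Gfi1b 1.06 (adjusted p = 0.146), and of Tal1 0.78 (adjusted p = 0.213), so none of the 10 factors was called. Without those with Y-linked transcripts the values were 0.73 (edgeR adjusted p = 0.0596), 1.06 (adjusted p = 0.0763), and 0.78 (adjusted p = 0.130). Both fits, chosen after seeing the data, keep 2 p53+/+ libraries beside the 3 p53-/- libraries. Each leaves out p53+/+ replicate 2 and no p53-/- library, so their like fold changes in this comparison are not separate checks. They cannot set granule transcripts apart from Y-linked ones. The fit without Y-linked libraries keeps 1 p53R248W/+ library, replicate 1.

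**Figure D5:**
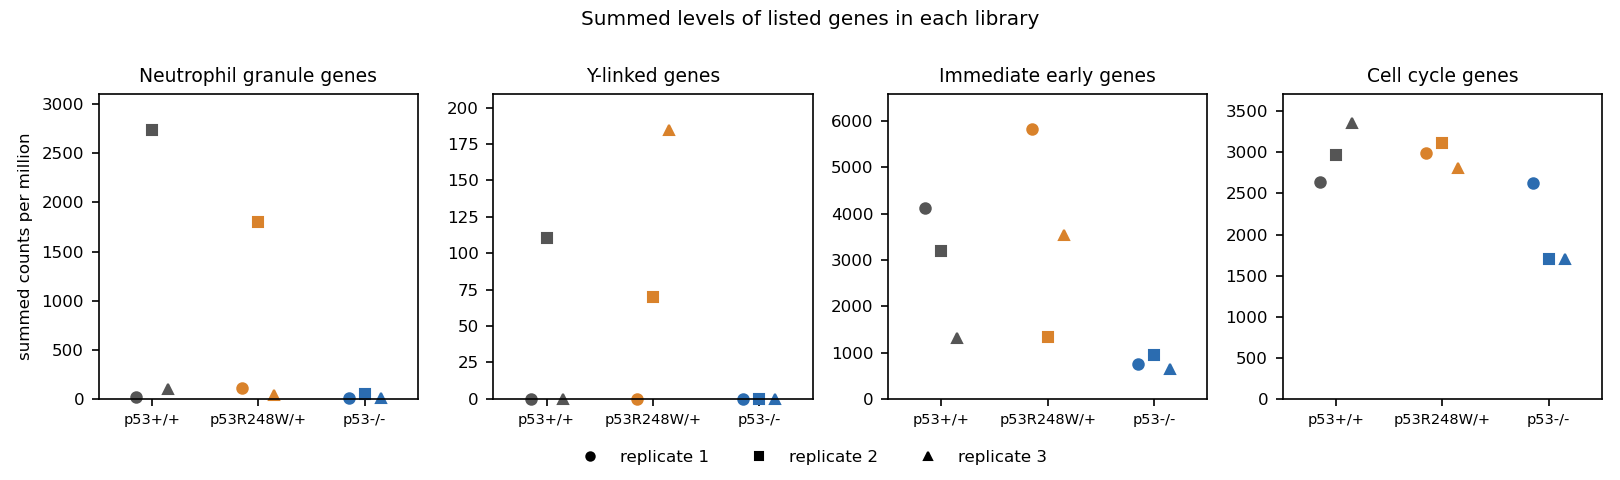
Summed CPM of 4 neutrophil granule genes, 4 Y-linked genes, 8 immediate early genes, and 15 cell cycle genes in each library, by genotype and replicate. The p53-/- libraries lie below both other genotypes for the immediate early and the cell cycle genes, and granule transcripts stand out in 2 libraries.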

How the data were processed

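RNA-seq libraries were made from LSKs with a SMART-Seq v4 kit per the labels, while the methods describe oligo(dT) selection and random hexamers, and no source states a strand setting. The submitters' processing notes list STAR 2.5.2b, featureCounts of Subread 1.5.0, edgeR, and mm10, without saying which file each made. The authors deposited whole-number read counts per gene for the 9 libraries, which sum to 18021375 to 29750702 per library, together with gene lengths whose annotation is not given in the sources used here. The authors also deposited log2 fold changes and p-values of their own comparisons, which were not used. No row is without a gene name, and the lowest total of a row was 37 counts.

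From the counts, CPM with TMM factors and an edgeR 4.0.16 quasi-likelihood fit of genotype to all 9 libraries were computed in R 4.3.3, after filterByExpr, with Benjamini-Hochberg adjustment over 12625 genes and a threshold of 0.05. Intervals are 95% and use edgeR's moderated spread, and the script was tested on simulated counts. Counting error was at most 4.78% of a factor's mean when taken at the mean count of a genotype, and was larger in libraries with fewer counts. Each result was computed again with DESeq2 1.42.0, with limma-voom (limma 3.58.1), with DESeq2 or upper-quartile scaling, without the filter or with a strict one (10 counts or more in each library), with a term for replicate number or for Y-linked expression, on 6 libraries at a time, and with libraries left out. Gene positions are from RefSeq on GRCm38.p6, the release of mm10, and overlaps between exons from GENCODE M21.

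The 10 factors, the lists, and the tests were chosen with earlier results of these data known. Named genes were all 10 factors, Ldb1, Cbfb, Tcf3, and Tcf12, Trp53 and Cdkn1a as checks of the labels, and, of 4 lists, genes below an adjusted p of 0.05, up to 3 per direction, list, and comparison by absolute log2 fold change. The values of 1 called gene of the target list are not reported here.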

Additional observations from a re-analysis of the deposited data

How the results depend on the processing

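With 3 libraries per genotype, single libraries decided calls of the core. In p53-/- against p53+/+ cells, 1 factor was called, and leaving out 1 library at a time gave 0 to 3 factors and 37 to 1485 genes in place of 442. The median log2 fold change of the factors, 0.33, ran from 0.19 to 0.51 in these fits. DESeq2 called 3 factors and 1537 genes. DESeq2's size factors in edgeR, at least 10 counts in every library, the Y-linked covariate (median 0.55), and the 6-library fit (894 genes) each gave 2 factors. Without the granule libraries there were 0 factors and 59 genes (median 0.51), and without the Y-linked libraries 0 factors and 264 genes (median 0.51). In p53R248W/+ against p53-/- cells, 0 factors and 434 genes were called, and 0 to 3 factors and 77 to 1559 genes with 1 library left out. DESeq2 gave 2 factors and 1325 genes, DESeq2's size factors and the strict filter 1 factor each, the Y-linked covariate 163 genes (median -0.62 in place of -0.32), the 6-library fit 208 genes, and the granule and Y-linked exclusions 77 and 46 genes. In p53R248W/+ against p53+/+ cells, 1 gene was called in all, 6 by DESeq2 and 0 with the strict filter, and the median of the factors was -0.18 without the Y-linked libraries. That last fit holds 1 p53R248W/+ library, replicate 1, assumed to vary like the other genotypes, so its values for p53R248W/+ cells are those of the library with the lowest value of its genotype for 7 of 10 factors. The causes were not tested, apart from the fewer libraries that some fits hold.

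No label states that libraries were paired by replicate number. The deposited names of p53+/+ and p53R248W/+ libraries share a form at each replicate number, and p53-/- names have a form of their own. What these forms stand for is not stated. Not every same-numbered pair was correlated above 0.1, and the libraries were not treated as paired in the main fit. A pairing of p53+/+ with p53R248W/+ libraries alone was not fitted. Deviations from the genotype mean correlated at 0.36 and 0.54 between p53+/+ and p53R248W/+ replicates 1 and 2, and from -0.11 to 0.13 in the other 7 pairs. As a hint from the data, 7 of 9 libraries correlated best with their own number. With the replicate number as a block, 2, 882, and 672 genes were called in p53R248W/+ against p53+/+, p53-/- against p53+/+, and p53R248W/+ against p53-/- cells, with 0, 2, and 1 factors.

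Of 600 log2 fold changes of single factors under the alternatives, 30 changed sign, all of them of factors that were not called. In p53R248W/+ against p53+/+ cells with 1 library left out, Runx1 ran from -0.0931 to 0.110, Gata2 from -0.21 to 0.17, Tal1 from -0.11 to 0.18, Lmo2 from -0.0523 to 0.0572, Lyl1 from -0.0764 to 0.104, Erg from -0.0344 to 0.31, Gfi1 from -0.0247 to 0.34, and Gfi1b from -0.20 to 0.16. In p53-/- against p53+/+ cells, Runx1 ran from -0.0488 to 0.147 and Lyl1 from -0.248 to 0.0657, and in p53R248W/+ against p53-/- cells Runx1 from -0.12 to 0.0553 and Lyl1 from -0.0170 to 0.296. The sign in p53R248W/+ against p53+/+ cells also changed for Runx1 without the granule libraries (0.0326), for Lyl1 (-0.17) and Erg (-0.21) without the Y-linked libraries, with that 1 p53R248W/+ library, and for Lmo2 (0.0051) and Gfi1 (-0.0094) with the Y-linked covariate. In the fit without the Y-linked libraries, Lyl1 was at -0.0443 in p53R248W/+ against p53-/- cells. The order of the factors per kb was unchanged with DESeq2's size factors in all 3 genotypes, and 18 of 30 ranks differed without division by length.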
